A study of Mus musculus with 12 samples.

Results

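The genes described here are the 10 that carry the RANK signal in thymic epithelial cells (TECs) as far as the non-canonical NF-κB transcription factors. They are the receptor RANK (Tnfrsf11a), its ligand RANKL (Tnfsf11), the decoy receptor osteoprotegerin (Tnfrsf11b), the related lymphotoxin β receptor (Ltbr), the adaptors Traf2, Traf3 and Traf6, the kinase NIK (Map3k14), and the transcription factor genes Nfkb2 and Relb. They were chosen by name from 25867 genes with a symbol, and all 10 were among the 18670 genes with enough counts to be tested. RNA was sequenced from TECs sorted from organ cultures of C57BL/6 fetal thymus, taken from embryos at E15.5. Each culture had 1.35 mM 2′-deoxyguanosine, which removes thymocytes, for 4 to 5 days and then 10 µg/mL of an agonist antibody against RANK for 3 days.

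The 4 groups held 3 libraries each. Kat7 knockout cultures carried RosaCre-ERT2 and Kat7fl/fl and were given tamoxifen, and control cultures were given tamoxifen too, with a control genotype that the sample labels do not detail. The column headers of the deposited counts mark the controls as wt and say no more of their genotype. Wild-type cultures were given WM-3835, an inhibitor of the histone acetyltransferase KAT7, or its solvent DMSO. No dose or duration is given for the inhibitor, and the compound is spelled WM-3825 in the sample titles. The Rosa locus is active in nearly all cell types, so this Cre is not specific to TECs. The labels call the libraries biological replicates and do not say whether lobes were pooled. Since every culture had the RANK antibody, no group shows these genes without the stimulus, and the antibody takes the place of the ligand.

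RANK is a receptor of the TNF receptor family that, when bound by RANKL, recruits TRAF adaptors. In resting cells TRAF3 and TRAF2 hold NIK for destruction. Receptor engagement frees NIK, which drives the cutting of the p100 product of Nfkb2 to p52, and p52 enters the nucleus with RelB. TRAF6 joins the same receptor to the canonical NF-κB arm, and osteoprotegerin competes with RANK for RANKL. In the thymus RANKL comes mainly from lymphoid tissue inducer cells and developing T cells, and signals through RANK and the lymphotoxin β receptor promote the maturation of medullary TECs, the cells that express Aire. RNA levels do not show NIK protein or p100 processing, the steps at which this pathway is mainly controlled.

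Library totals ran from 26656847 to 52368012 counts, which leaves 9 of the 10 genes far above the limit of detection. Levels within a gene are given as CPM, counts scaled to library size. Kat7 stood at 0.606, 0.810 and 0.869 CPM in the 3 knockout libraries, against 76.0 to 89.0 CPM in the controls, and at 98.5 to 100.4 CPM with WM-3835 and 84.6 to 88.9 CPM with DMSO. Xist, the RNA of the inactive X chromosome, divided the libraries: 1709, 1191 and 4.94 CPM in knockout 1, 2 and 3, 2.34 to 3.17 CPM in the controls, and 846 to 2118 CPM in the WM-3835 and DMSO libraries. Markers of thymic epithelium summed to 9796 to 10171 CPM in the knockout, 9792 to 11065 CPM in the control, 6863 to 7887 CPM with WM-3835 and 7839 to 9445 CPM with DMSO, and each of the 7 was well detected in every library. Krt5 and Krt8 make up most of that sum. Taken singly, Ly75 rose and H2-Aa fell in the knockout (1 and 1 of 7, against 6.12% and 8.06% of all genes). With WM-3835 Epcam rose and Psmb11, Ly75, Foxn1, H2-Aa and Krt5 fell (1 and 5 of 7, against 9.34% and 9.35% of all genes). In other fits, H2-Aa in the knockout did not pass in 7 of 23 and Krt5 with WM-3835 in 6 of 21. Markers of thymocytes summed to at most 26.5 CPM in any library, with Cd3e and Cd8a at 0 or near it, and those of innate lymphoid and lymphoid tissue inducer cells to at most 30.6 CPM, with Klrd1 and Il22 at 0 or near it. Fibroblast markers were highest in the controls, with sums of 60.2 to 81.1 CPM in the knockout, 123 to 185 CPM in the control, 48.6 to 61.4 CPM with WM-3835 and 55.7 to 70.7 CPM with DMSO. Endothelial markers summed to at most 20.7 CPM, and those of macrophages and dendritic cells to between 41.1 and 108 CPM.

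Among the 10 genes, Traf6 rose and Tnfrsf11b and Map3k14 fell in the Kat7 knockout, and Tnfrsf11b and Relb fell with WM-3835. Calls are at an adjusted p under 0.05 in edgeR's quasi-likelihood test, with Benjamini-Hochberg adjustment over all genes tested. The knockout count is 3 of 10 (14.2% of all genes passed), with 1 higher (6.12% of all genes) and 2 lower (8.06%). The inhibitor count is 2 of 10 (18.7% of all genes passed), with none higher (9.34%) and 2 lower (9.35%). Only Tnfrsf11b passed in both comparisons, and it was lower in both. The median log2 fold change of the 10 was 0.01 in the knockout, against -0.01 over all genes, and -0.16 with WM-3835, against -0.01 over all genes. With WM-3835, 9 of the 10 estimates were below 0. In the knockout 5 of 10 were.

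**Figure D1:**
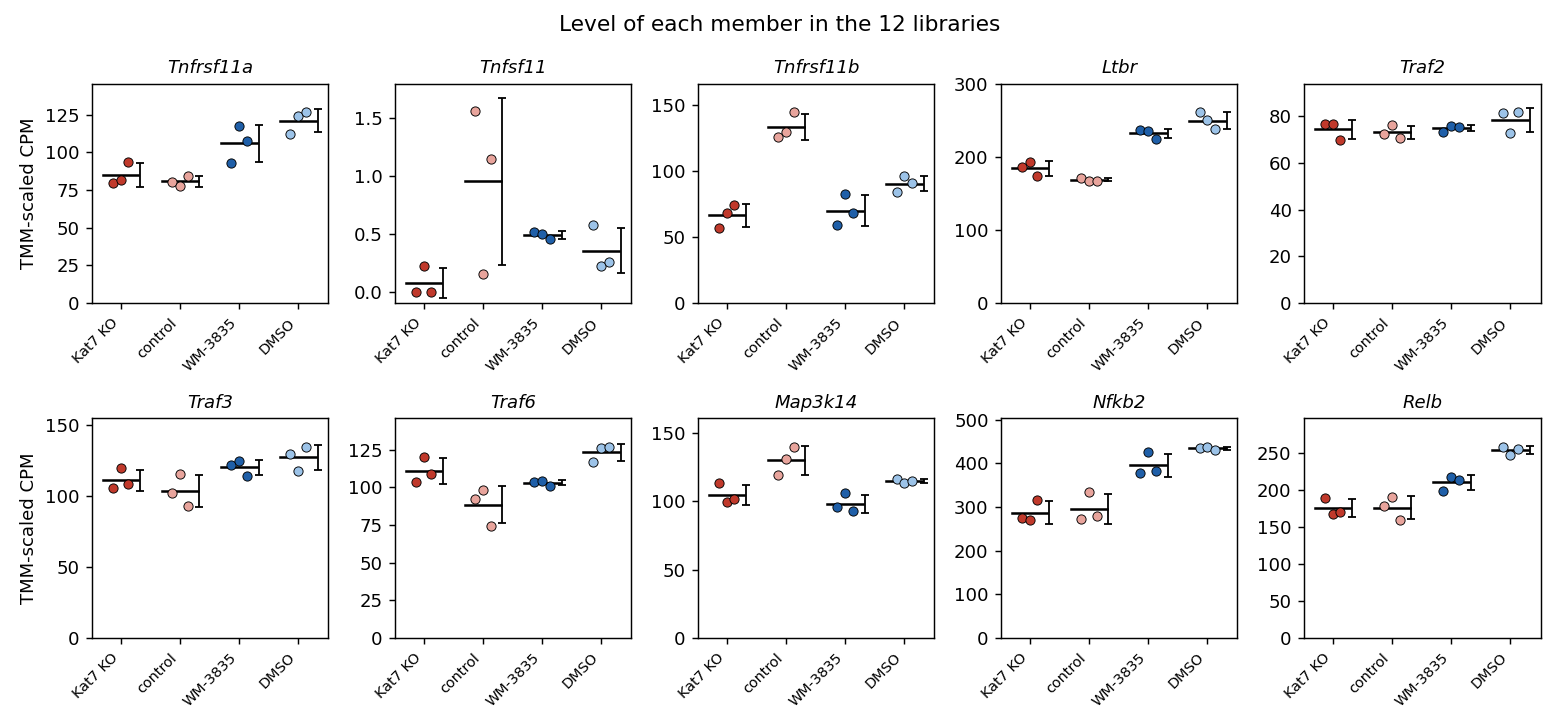
TMM-scaled counts relative to library size (CPM) of the 10 genes in each of the 12 libraries, in 4 groups per panel (points are libraries, horizontal lines are group means and error bars SD, n = 3). Tnfrsf11b lies at 56.9 to 74.1 CPM in all 3 knockout libraries and at 126 to 144 CPM in all 3 controls, while Tnfrsf11a overlaps between those groups.

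The receptor gene itself, Tnfrsf11a (Entrez ID 21934, chromosome 1, 105780673 to 105849444 on GRCm38, also called mm10), did not pass in either comparison. It stood at 79.5, 81.9 and 93.9 CPM in the 3 knockout libraries, against 80.3, 77.4 and 84.7 CPM in the controls. The groups overlap, and the log2 difference was 0.07 (SE 0.09, 95% interval -0.12 to 0.27, adjusted p = 0.659 in edgeR's quasi-likelihood test). With WM-3835 it stood at 93.0, 117 and 108 CPM, against 112, 124 and 127 CPM with DMSO. The inhibitor libraries lean low but overlap the solvent ones at 1 library each, with a log2 difference of -0.19 (SE 0.09, 95% interval -0.39 to 0.003, adjusted p = 0.176).

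Tnfsf11, the ligand gene (Entrez ID 21943, chromosome 14, 78277446 to 78308043), was near the limit of detection in every library. The knockout libraries held 0, 6 and 0 counts, and the controls held 66, 6 and 41. With WM-3835 there were 23, 19 and 13 counts, and with DMSO 30, 6 and 11. Controls 1 and 3 thus stood highest, and the 3 controls were far apart. In CPM these are 0 to 0.221 in the knockout, 0.149 to 1.56 in the control, 0.451 to 0.515 with WM-3835 and 0.224 to 0.578 with DMSO. A count of 0 allows a level of up to 0.0826 CPM in knockout 1 and 0.104 CPM in knockout 3, from 3 counts and covering counting error only. Control 2 fell inside the knockout range, and the log2 difference was -3.69 (SE 1.43, adjusted p = 0.0944), short of the threshold. It passed in DESeq2 (-3.76, adjusted p = 0.0153), without control 2 (adjusted p = 0.0485) and without knockout 2, the only knockout library with any count (adjusted p = 0.0218). The inhibitor difference was 0.45 (SE 1.24, adjusted p = 0.875). Summed markers of lymphoid tissue inducer and other innate lymphoid cells, which are known to make RANKL, were 20.9 to 28.5 CPM in the knockout and 26.9 to 30.6 CPM in the control, and fibroblast markers differed as given above. Their part in the Tnfsf11 counts was not tested.

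Tnfrsf11b, which encodes the secreted decoy osteoprotegerin (Entrez ID 18383, chromosome 15, 54250619 to 54278484), was the most changed of the 9 well-detected genes in the knockout. It stood at 56.9, 68.1 and 74.1 CPM in the 3 knockout libraries, against 126, 129.8 and 144 CPM in the controls. Every knockout library lies below every control library. The fall was 1.01 on the log2 scale (SE 0.11, 95% interval -1.25 to -0.77, adjusted p = 1.64e-05 in edgeR's quasi-likelihood test), which is 2.01-fold. It passed in all 23 other fits run, at -1.08 to -0.78, and was smallest after adjusting for Xist (-0.78, adjusted p = 0.0255). With WM-3835 the gene stood at 59.4, 82.5 and 67.9 CPM, against 84.4, 96.3 and 90.7 CPM with DMSO. Here too the groups do not overlap, but WM-3835 2 and DMSO 1 lie close together. The fall was 0.37 (SE 0.11, adjusted p = 0.0288), or 1.29-fold. It did not pass without DMSO 2 (-0.32, adjusted p = 0.117), DMSO 3 (-0.37, 0.0702), WM-3835 1 (-0.26, 0.173) or WM-3835 3 (-0.35, 0.095). The knockout effect minus the inhibitor effect was -0.64 (SE 0.16, adjusted p = 0.0149). This missed the threshold without knockout 1 (-0.52, adjusted p = 0.0548) or WM-3835 2 (-0.49, 0.0523), and after adjusting for Xist (-0.40, 0.326). With knockout 3 standing for its group the difference was -0.46. Such a difference between effects passed for 2 of the 10 genes and 10.1% of all genes: lower for Tnfrsf11b (5.69% of all genes) and higher for Traf6 (4.41%). In these bulk libraries fewer cells of a type and less RNA per cell cannot be told apart. Fibroblasts can also make osteoprotegerin, and fibroblast markers were lower in the knockout than in the control (4 of 7 fell, none rose, against 8.06% and 6.12% of all genes) and overlapped in sum between WM-3835 (48.6 to 61.4 CPM) and DMSO (55.7 to 70.7 CPM), where 1 of 7 rose and 3 fell (9.34% and 9.35% of all genes). With WM-3835, 5 of 7 markers of thymic epithelium also fell and 1 rose, against the same shares of all genes. Their part in the result was not tested.

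The amount of decoy message relative to receptor message followed from this. Per length, Tnfrsf11b over Tnfrsf11a was 1.28, 1.48 and 1.41 in the knockout libraries and 2.80, 2.99 and 3.04 in the controls, so no knockout library came near a control. It was 1.14, 1.255 and 1.12 with WM-3835 and 1.34, 1.38 and 1.28 with DMSO, where the groups also stay apart but by a narrow margin. The ratio was computed after both levels were known and carries no test.

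Ltbr, the receptor for lymphotoxin that feeds the same kinase (Entrez ID 17000, chromosome 6, 125306571 to 125313885), did not pass in either comparison. It stood at 187, 193 and 173 CPM in the knockout and 172, 167 and 167 CPM in the control. Knockout 3 lies just above control 1, so the groups do not overlap, at a log2 difference of 0.13 (SE 0.07, adjusted p = 0.231). Under WM-3835 it stood at 237, 235 and 225 CPM, against 261, 249.9 and 238 CPM with DMSO. The inhibitor libraries are all below the solvent ones, the closest pair almost touching, at -0.11 (SE 0.07, adjusted p = 0.323).

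Of the adaptors, Traf2 and Traf3, which together with ubiquitin ligases of the cIAP family mark NIK for destruction, did not pass in either comparison. Traf2 (Entrez ID 22030, chromosome 2, 25517982 to 25546940) ranged from 69.8 to 76.9 CPM in the knockout, 70.9 to 76.4 CPM in the control, 73.4 to 75.9 CPM with WM-3835 and 72.8 to 81.8 CPM with DMSO. Its log2 differences were 0.03 (SE 0.08, adjusted p = 0.874) in the knockout and -0.07 (SE 0.08, adjusted p = 0.635) with the inhibitor. Traf3 (Entrez ID 22031, chromosome 12, 111166321 to 111267155) ranged from 106 to 119.5 CPM in the knockout, 92.5 to 115 CPM in the control, 114 to 124 CPM with WM-3835 and 118 to 134 CPM with DMSO. All these ranges overlap between the groups compared, with differences of 0.10 (SE 0.09, adjusted p = 0.48) and -0.08 (SE 0.09, adjusted p = 0.594).

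Traf6, the adaptor that links RANK to the canonical arm (Entrez ID 22034, chromosome 2, 101678420 to 101701668), rose in the knockout and not with the inhibitor, where its estimate was below 0. It stood at 104, 120.3 and 109 CPM in the 3 knockout libraries, against 92.3, 98.2 and 74.5 CPM in the controls. All knockout libraries are above all controls, and control 3 is the lowest of the 12. The rise was 0.33 (SE 0.09, 95% interval 0.13 to 0.52, adjusted p = 0.0251 in edgeR's quasi-likelihood test). With WM-3835 it stood at 104, 104 and 101 CPM, against 117, 126 and 127 CPM with DMSO, again without overlap but with the inhibitor libraries below. That difference was -0.26 (SE 0.09, adjusted p = 0.0608) and missed the threshold. The difference between the knockout and inhibitor effects was 0.58 (SE 0.13, adjusted p = 0.00676). This difference did not pass after adjusting for Xist (0.57, adjusted p = 0.084), and it was 0.57 with knockout 3 standing for its group. The knockout rise did not pass without control 3 (0.23, adjusted p = 0.0678), without knockout 2 (0.28, 0.102), with quality weights per group (0.33, 0.0788), in a fit of these 6 libraries (0.32, 0.112), after adjusting for Xist (0.32, 0.273) or with knockout 3 standing for its group (0.31, 0.224). The inhibitor difference passed in 10 of 21 other fits, among them DESeq2.

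Map3k14, which encodes NIK, the kinase that starts p100 processing (Entrez ID 53859, chromosome 11, 103219764 to 103267401), was lower in the knockout. It stood at 113, 99.2 and 101 CPM in the 3 knockout libraries, against 119, 131 and 139.6 CPM in the controls. The groups do not overlap, and the nearest libraries are knockout 1 and control 1. The fall was 0.31 (SE 0.08, 95% interval -0.48 to -0.14, adjusted p = 0.0163 in edgeR's quasi-likelihood test). It did not pass without control 3 (-0.25, adjusted p = 0.0582), knockout 2 (-0.26, 0.0818) or knockout 3 (-0.28, 0.0684), with quality weights per group (-0.30, 0.0756), in a fit of these 6 libraries (-0.32, 0.0708), after adjusting for Xist (-0.35, 0.174) or with knockout 3 standing for its group (-0.35, 0.126). With WM-3835 it stood at 95.6, 106 and 92.7 CPM, against 116, 113 and 115 CPM with DMSO. All inhibitor libraries are below all solvent ones, at a difference of -0.23 (SE 0.08, adjusted p = 0.0627) that missed the threshold here and passed it in 10 of 21 other fits. The knockout and inhibitor effects on Map3k14 differed by -0.09 (SE 0.12, 95% interval -0.33 to 0.16, adjusted p = 0.738).

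Per length, the kinase message over that of its main inhibitor, Map3k14 over Traf3, averaged 1.58 ± 0.201 in the knockout and 2.12 ± 0.346 in the control (SD, n = 3 each), and 1.37 ± 0.0541 with WM-3835 and 1.51 ± 0.0902 with DMSO. The ratio is given as a description only.

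Of the transcription factor genes at the end of the pathway, neither passed in the knockout, and only Relb passed with WM-3835. Nfkb2, which encodes p100 and p52 (Entrez ID 18034, chromosome 19, 46300994 to 46312400), stood at 274, 270.4 and 317 CPM in the knockout and 273, 334 and 278 CPM in the control. The groups interleave, with a log2 difference of -0.04 (SE 0.09, 95% interval -0.22 to 0.14, adjusted p = 0.808). With WM-3835 it stood at 377, 426 and 382 CPM, against 435, 437 and 429.98 CPM with DMSO. Every inhibitor library is below every solvent library, WM-3835 2 by only a few CPM, and the difference was -0.14 (SE 0.08, 95% interval -0.31 to 0.04, adjusted p = 0.312). The knockout and inhibitor effects on Nfkb2 differed by 0.10 (SE 0.12, adjusted p = 0.714 in edgeR's quasi-likelihood test), which did not pass.

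Relb, which encodes the partner of p52 (Entrez ID 19698, chromosome 7, 19606217 to 19629438), had nearly equal means in the tamoxifen-treated groups. It stood at 189, 167 and 170.4 CPM in the knockout and 179, 189.96 and 159 CPM in the control, a log2 difference of -0.00 (SE 0.08, 95% interval -0.16 to 0.16, adjusted p = 0.988). The inhibitor libraries, at 199, 218 and 213 CPM, were all below the DMSO libraries, at 258, 247 and 256 CPM. Every inhibitor library is thus clear of every solvent library. The fall was 0.27 (SE 0.08, 95% interval -0.43 to -0.11, adjusted p = 0.0173 in edgeR's quasi-likelihood test), or 1.21-fold. It did not pass without DMSO 1 (-0.26, adjusted p = 0.0657), DMSO 3 (-0.27, 0.0563) or WM-3835 1 (-0.24, 0.0974). The knockout and inhibitor effects on Relb differed by 0.27 (SE 0.11, adjusted p = 0.13), short of the threshold. Markers of thymic epithelium moved with the inhibitor as well, 5 of 7 lower and 1 higher (9.35% and 9.34% of all genes). Their part in the fall of Relb was not tested. Relb over Nfkb2 per length was 0.919 ± 0.113 in the knockout, 0.893 ± 0.074 in the control, 0.795 ± 0.0352 with WM-3835 and 0.872 ± 0.0246 with DMSO (SD, n = 3 each).

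**Figure D2:**
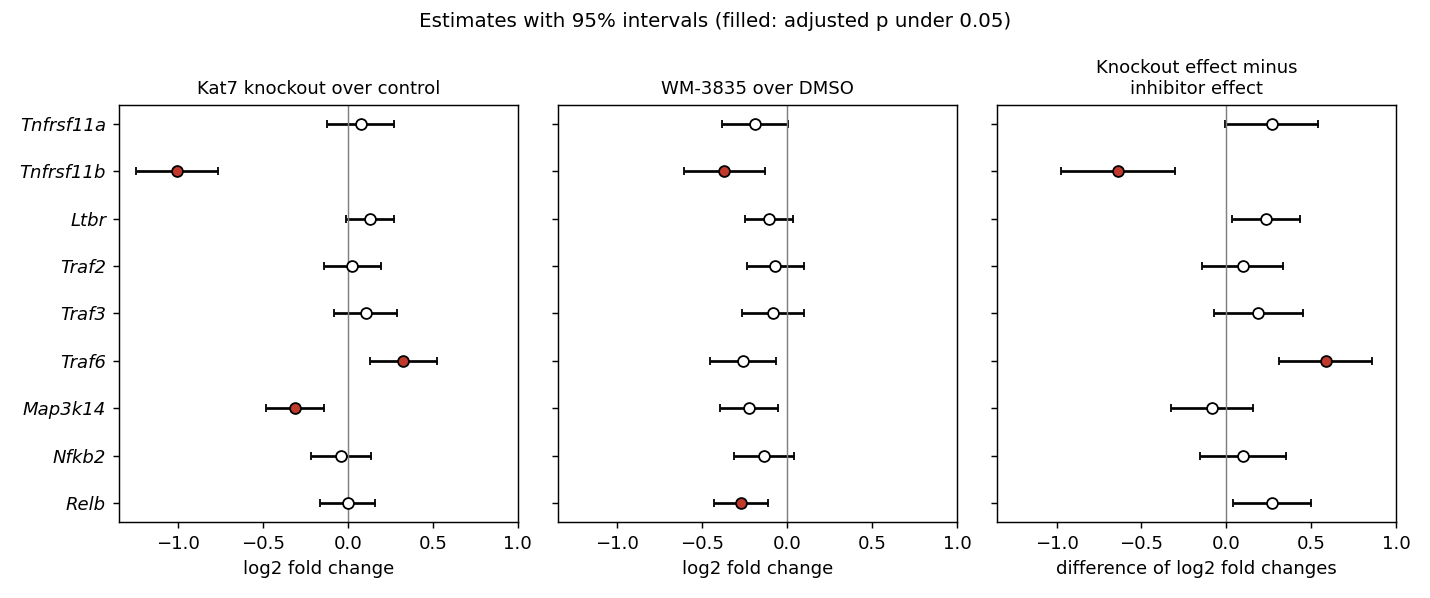
Log2 fold changes of 9 genes with 95% intervals for Kat7 knockout over control, WM-3835 over DMSO, and the difference between those effects (filled points passed at an adjusted p under 0.05, and Tnfsf11 is left out for its low counts). Tnfrsf11b is below 0 in all 3 panels, and Traf6 lies at 0.33 in the first panel, -0.26 in the second and 0.58 in the third.

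Without overlap between the groups, 4 of the 10 genes separated in the knockout comparison (Ltbr and Traf6 above the control, Tnfrsf11b and Map3k14 below it), against 25.7% of all genes tested (12.2% above and 13.5% below). With WM-3835, 6 of 10 separated (Tnfrsf11b, Ltbr, Traf6, Map3k14, Nfkb2 and Relb), against 46.1% of all genes, and all 6 were lower, against 23% of all genes (23.1% were higher). The 10 genes were chosen as 1 pathway, with earlier results of these data known, and the counts carry no test. Scaling bears on the sign: among all genes called with WM-3835, 50.03% were lower, against 60.1% with upper-quartile scaling. Under RLE scaling, upper-quartile scaling and DESeq2, 4 of the 10 genes passed with WM-3835 in place of 2. Over all 9 settings other than leaving out a library, 3421 to 6589 of all genes passed, against 3490 in the main fit.

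Nfkb2 is known as a target of NF-κB factors, which makes the sequence around its start site the place to look for their binding element. Promoter windows of 250 bases before to 50 bases after a start site were taken from RefSeq on GRCm38.p6 for 8 of the genes (10 windows in all). No window was available for Relb and Tnfrsf11b, which were not searched. The κB consensus element of 10 bases was searched on both strands. It was present in 1480 of 32851 promoter windows (4.51%) and in at least 1 window of 1388 of 27025 genes (5.14%). Of the 8 genes, Nfkb2 and Traf3 had a match. The windows of Nfkb2 (first start site, chr19:46304487-46304786, plus strand) and Traf3 (chr12:111166120-111166419, plus strand) show the matches in capitals, and that of Map3k14 (chr11:103267352-103267651, minus strand), which fell in the knockout, has none. All are written 5′ to 3′ on the strand of the gene.
Nfkb2: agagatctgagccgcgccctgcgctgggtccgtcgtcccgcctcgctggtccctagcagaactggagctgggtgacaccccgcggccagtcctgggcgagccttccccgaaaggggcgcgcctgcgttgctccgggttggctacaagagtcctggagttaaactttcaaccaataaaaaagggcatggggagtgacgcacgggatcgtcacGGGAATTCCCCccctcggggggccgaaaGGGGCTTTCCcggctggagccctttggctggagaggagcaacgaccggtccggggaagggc
Traf3: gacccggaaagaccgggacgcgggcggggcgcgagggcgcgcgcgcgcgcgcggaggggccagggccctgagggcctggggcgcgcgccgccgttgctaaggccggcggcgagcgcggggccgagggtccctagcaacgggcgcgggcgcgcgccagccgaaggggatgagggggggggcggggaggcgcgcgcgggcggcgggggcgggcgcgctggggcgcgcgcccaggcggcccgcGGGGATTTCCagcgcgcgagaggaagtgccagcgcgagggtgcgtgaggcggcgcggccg
Map3k14: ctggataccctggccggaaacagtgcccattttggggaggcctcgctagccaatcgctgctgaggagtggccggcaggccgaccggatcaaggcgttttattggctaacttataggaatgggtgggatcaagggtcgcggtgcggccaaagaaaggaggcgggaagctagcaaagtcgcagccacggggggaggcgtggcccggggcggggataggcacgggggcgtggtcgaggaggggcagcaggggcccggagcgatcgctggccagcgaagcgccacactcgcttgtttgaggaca

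In the Nfkb2 window, the palindrome GGGAATTCCC starts 39 bases before the start site and reads the same on both strands. It overlaps a match on the opposite strand, GGAATTCCCC, and a further match, GGGGCTTTCC, starts 11 bases before the start site. The other 2 Nfkb2 windows overlap each other and share GGGACTTTCC, and 1 of them also holds GGAATGTCCC. The Traf3 window holds GGGGATTTCC, starting 10 bases before its start site. A match describes the sequence only, and a window without one says nothing about binding.

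Compared per length, in reads per kilobase of gene and per library size (RPKM), the 10 genes fell into blocks whose inner order changed between libraries. Nfkb2, Ltbr and Relb held the first 3 ranks in every library, at 72.1 to 133 RPKM. Tnfrsf11b (20.2 to 51.3 RPKM), Map3k14 (22.2 to 33.5 RPKM) and Traf2 (23.3 to 27.3 RPKM) followed, between ranks 4 and 7. Tnfrsf11a lay at 15.4 to 25.2 RPKM, between ranks 6 and 9, Traf6 at 13.6 to 23.1 RPKM and Traf3 at 13.3 to 19.3 RPKM. Tnfsf11 was last in all 12 libraries, at 0 to 0.699 RPKM. The receptor message was thus below that of the decoy in every library, and the ligand message below both.

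**Figure D3:**
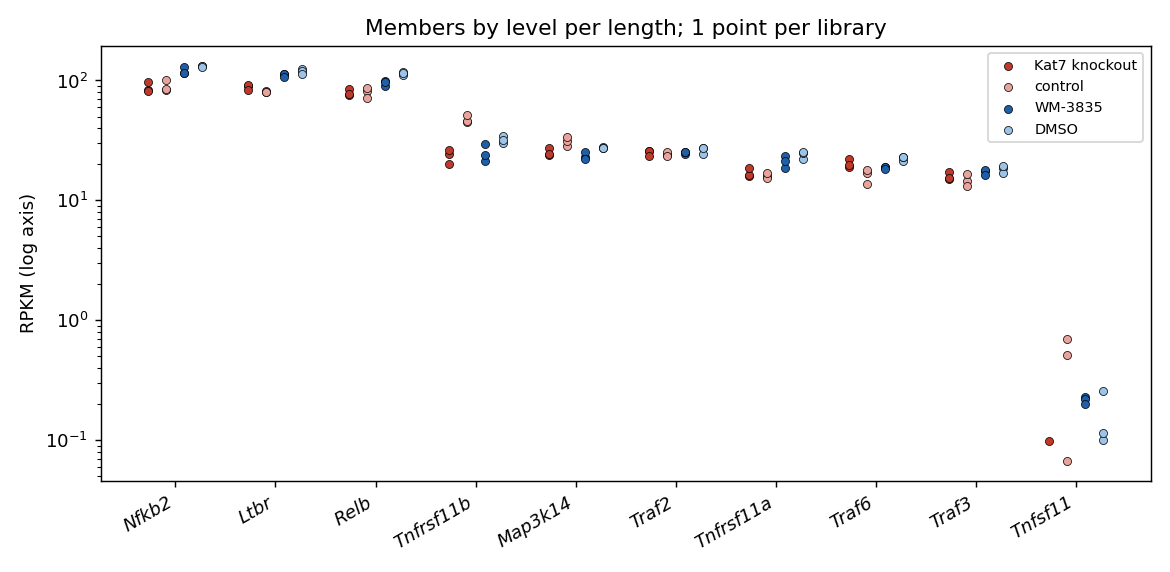
RPKM of the 10 genes on a log axis, with 1 point per library and 4 groups per gene, and genes ordered by mean level. Nfkb2, Ltbr and Relb lie at 72.1 to 133 RPKM, and Tnfsf11 lies below 0.7 RPKM, with knockout 1 and 3, at 0 counts, not drawn.

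Across the 4 groups, the levels were ordered differently from gene to gene. Tnfrsf11b averaged 66.4 ± 8.72 CPM in the knockout and 133 ± 9.79 CPM in the control, and 70.0 ± 11.7 CPM with WM-3835 and 90.5 ± 5.96 CPM with DMSO. From highest to lowest the order was control, DMSO, WM-3835, knockout, and only the last pair of neighbours overlaps. Nfkb2 averaged 287 ± 25.8 CPM in the knockout and 295 ± 34.1 CPM in the control, and 395 ± 27.1 CPM with WM-3835 and 434 ± 3.84 CPM with DMSO (SD, n = 3 each). Its order was DMSO, WM-3835, control, knockout, and again only the last neighbours overlap. Relb had the same order and the same single overlap. For Ltbr no neighbours overlap in the order DMSO, WM-3835, knockout, control. Map3k14 was highest in the control and the groups below DMSO overlap in turn, Traf6 was lowest in the control with the 3 other groups overlapping in turn, and for Tnfrsf11a, Traf2 and Traf3 all neighbours overlap.

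The wild-type DMSO cultures and the tamoxifen-treated controls also differed. Tnfrsf11a stood at 112, 124 and 127 CPM with DMSO, against 80.3, 77.4 and 84.7 CPM in the control, a log2 difference of 0.58 (SE 0.09, adjusted p = 0.000128 in edgeR's quasi-likelihood test). Ltbr (0.57), Nfkb2 (0.56), Relb (0.53), Traf6 (0.48) and Traf3 (0.30) were also higher with DMSO, and Tnfrsf11b was lower (-0.56, SE 0.11, adjusted p = 0.00116). In all, 7 of the 10 passed (24.6% of all genes), 6 of them higher (11.4%) and 1 lower (13.3%), and the median was 0.39, against 0.00 over all genes. Without overlap, 6 genes lay above the control and 2 below it, against 38.9% of all genes (19.6% above and 19.4% below). Traf3 did not pass without control 3, DMSO 1 or DMSO 3 (adjusted p = 0.0505, 0.0515 and 0.069) or in a fit of these 6 libraries (0.29, adjusted p = 0.0664). Genotype label and treatment differ together between these groups, so their effects cannot be told apart. Xist separates these groups completely, at 1382 to 1898 CPM with DMSO and 2.34 to 3.17 CPM in the control, and no fit with Xist as a term was run for this comparison. Of 7 fibroblast markers, 1 was higher and 4 were lower with DMSO, against 11.4% and 13.3% of all genes. Markers of thymic epithelium moved too, 2 of 7 higher and 2 lower. Of those of macrophages and dendritic cells, 2 of 7 were lower and none higher. Innate lymphoid markers had 2 of 5 tested genes lower, thymocyte markers 1 of 4 and endothelial markers 1 of 4, again with none higher. The part of Xist or of any of these markers in these differences was not tested. The knockout and inhibitor effects are therefore measured from unlike starting levels.

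The neighbours of the pathway were read from 4 lists, whose genes were chosen with earlier results of these data known. Counts over the lists stand against 6.12% of all genes higher and 8.06% lower in the knockout, and 9.34% higher and 9.35% lower with WM-3835. For receptors and ligands that feed it, 1 of 9 tested genes fell and none rose in the knockout (median log2 fold change -0.48), and 2 rose and 2 fell with WM-3835 (median -0.64). Tnfrsf13c, the BAFF receptor gene, fell in both at low levels. It stood at 0.303, 1.03 and 2.82 CPM in the knockout, against 5.06, 5.90 and 9.46 CPM in the control (-2.31, SE 0.61, adjusted p = 0.0171), and at 0.470, 0.704 and 0.173 CPM with WM-3835, against 1.77, 3.40 and 1.83 CPM with DMSO (-2.33, SE 0.64, adjusted p = 0.0147). Knockout 3 has the highest level of its group, and the call was lost without knockout 1 (-1.81, adjusted p = 0.0515) or knockout 2 (-2.13, 0.0742), after adjusting for Xist (-0.93, 0.579) and with knockout 3 standing for its group (-1.26, 0.318). The inhibitor call was lost without DMSO 2 (-1.97, adjusted p = 0.0726), WM-3835 1 (-2.36, 0.0522) or WM-3835 3 (-1.98, 0.0709), and in limma-voom (-2.27, 0.0875).

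Cd40, a receptor that acts with RANK in medullary TECs, stood at 57.8, 65.1 and 67.8 CPM with WM-3835, against 94.6, 107 and 94.5 CPM with DMSO. This clear separation gave a fall of 0.64 (SE 0.09, adjusted p = 3.89e-05). In the knockout it stood at 66.1 to 67.3 CPM, against 71.6 to 80.5 CPM in the control, and did not pass (-0.21, SE 0.09, adjusted p = 0.124). Tnfrsf1b, the gene of TNF receptor 2 (0.63, SE 0.13, adjusted p = 0.00153), and Tnfrsf12a, the TWEAK receptor gene (0.75, SE 0.17, adjusted p = 0.00414), rose with WM-3835. In the knockout neither passed (0.37, adjusted p = 0.0562, and -0.42, adjusted p = 0.114), and nor did Tnfsf13b, the BAFF gene (-2.26, adjusted p = 0.0774). Tnfsf13b was low, at 0.634, 0.258 and 0.278 CPM in the knockout, against 0.994, 0.498 and 4.20 CPM in the control, where control 3 stands apart.

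Regulators of NIK and TRAF3 held 1 gene of 8 that rose and none that fell in the knockout (median 0.13), and 2 that rose and 2 that fell with WM-3835 (median 0.07). Birc2 and Birc3 encode the cIAP ligases that ubiquitinate NIK. Birc2 stood at 167, 165 and 159 CPM with WM-3835, against 249, 282 and 255 CPM with DMSO, a fall of 0.68 (SE 0.08, adjusted p = 8.95e-06). In the knockout it stood at 212, 211 and 198 CPM, against 166, 193 and 206 CPM in the control, which overlap (0.14, SE 0.08, adjusted p = 0.29). Birc3 fell with WM-3835 by 0.36 (SE 0.08, adjusted p = 0.00242) and did not pass in the knockout (-0.19, adjusted p = 0.117), and nor did Chuk, which encodes the IKKα kinase acted on by NIK (0.18, adjusted p = 0.243). Otud7b, a deubiquitinase that protects TRAF3, rose in both (0.28, SE 0.08, adjusted p = 0.0258 in the knockout and 0.34, SE 0.08, adjusted p = 0.00456 with WM-3835). Its knockout call was lost without control 1 (0.23, adjusted p = 0.0732), control 2 (0.27, 0.051) or knockout 2 (0.26, 0.0796). Tbk1, a kinase that can phosphorylate NIK, rose with WM-3835 (0.31, SE 0.07, adjusted p = 0.00384).

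In the canonical arm, 1 of 12 genes rose and 1 fell in the knockout (median -0.09), and 2 rose and 1 fell with WM-3835 (median -0.01). Rela, which encodes the p65 subunit, stood at 163, 160 and 153 CPM with WM-3835, against 134, 117 and 125 CPM with DMSO, a rise of 0.34 (SE 0.08, adjusted p = 0.00474), and did not pass in the knockout (-0.13, adjusted p = 0.315). Ikbkg, the gene of the NEMO subunit of the IKK complex, rose with WM-3835 (0.46, SE 0.09, adjusted p = 0.00149) and in the knockout (0.28, SE 0.09, adjusted p = 0.0491), where the call was lost in 17 of 23 other fits. Those include each fit without control 2, control 3, knockout 1 or knockout 2 (0.22 to 0.31, adjusted p = 0.0773 to 0.17). Tnfaip3, the gene of the NF-κB inhibitor A20, fell in the knockout (-0.39, SE 0.11, adjusted p = 0.023), a call lost in 8 of 23 other fits, those without control 1 (adjusted p = 0.0757), control 2 (0.0595), knockout 2 (0.135) or knockout 3 (0.0608) among them. Tab1, a partner of the kinase TAK1, fell with WM-3835 (-0.39, SE 0.13, adjusted p = 0.0355), and lost its call without any 1 of 5 of those 6 libraries (adjusted p = 0.0688 to 0.172). Nfkb1 did not pass in the knockout (-0.15, adjusted p = 0.172), nor Nfkbie, an IκB gene, with WM-3835 (-0.19, adjusted p = 0.211).

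Genes known to be brought on through RANK, the lymphotoxin β receptor or RelB were the list with the most calls of the 4. In the knockout 8 of 12 fell and 1 rose (8.06% and 6.12% of all genes), with a median of -0.41, against -0.01 over all genes. With WM-3835 6 of 12 fell and none rose (9.35% and 9.34% of all genes), with a median of -0.52, against -0.01. The knockout count was lower in many other fits: 2 fell in a fit of the 6 libraries, 1 with quality weights per group, 1 after adjusting for Xist, 1 with knockout 3 standing for its group, and 2 to 6 when 1 library was left out. The knockout median was -0.25 without control 3, -0.27 without control 1, -0.21 with knockout 3 standing for its group and -0.19 after adjusting for Xist. The inhibitor count was 6 or 7 in all 21 other fits, and its median was -0.33 without DMSO 2. With WM-3835, 5 of 7 markers of thymic epithelium fell and 1 rose, H2-Aa belongs to both lists, and the part of these markers in the list's falls was not tested. Ccl21a and Ccl19 encode chemokines that draw thymocytes to the medulla. Ccl21a stood at 166, 177 and 151 CPM in the knockout, against 531, 360 and 350 CPM in the control, and at 135, 112 and 120.5 CPM with WM-3835, against 238, 198 and 163 CPM with DMSO. Its falls were 1.33 (SE 0.14, adjusted p = 8.96e-06) in the knockout and 0.71 (SE 0.14, adjusted p = 0.00155) with WM-3835, both held in every fit run, and its counts are uncertain because near-identical copies exist. Ccl19 fell by 1.12 (SE 0.26, adjusted p = 0.00863) in the knockout and by 1.62 (SE 0.27, adjusted p = 0.000291) with WM-3835. Fibroblasts also express Ccl19, and their summed markers were 60.2 to 81.1 CPM in the knockout and 123 to 185 CPM in the control, whose part in the result was not tested.

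Madcam1, an adhesion molecule for lymphocytes, fell by 1.42 (SE 0.35, adjusted p = 0.0108) in the knockout and by 1.56 (SE 0.34, adjusted p = 0.00299) with WM-3835. The knockout call was lost without control 2 (-0.88, adjusted p = 0.0673) or knockout 1 (-1.19, adjusted p = 0.0573). Vcam1, another adhesion molecule, went opposite ways. It stood at 299, 293 and 253 CPM in the knockout, against 199, 251 and 182 CPM in the control (0.42, SE 0.11, adjusted p = 0.0166), and at 159, 200.4 and 173 CPM with WM-3835, against 271, 317 and 284 CPM with DMSO (-0.71, SE 0.11, adjusted p = 0.000164). Its knockout rise did not pass without control 3 (0.33, adjusted p = 0.0528), knockout 1 (0.39, 0.0628) or knockout 2 (0.40, 0.0616). Aire had 542, 490.2 and 577 CPM in the knockout, against 596, 668 and 636 CPM in the control (-0.24, SE 0.08, adjusted p = 0.0457), and 510.1, 586 and 572 CPM with WM-3835, against 1123, 1215 and 1259.6 CPM with DMSO (-1.11, SE 0.08, adjusted p = 3.36e-08). The knockout call was lost in 15 of 23 other fits, those without control 2, control 3, knockout 1 or knockout 2 among them (-0.24 to -0.17, adjusted p = 0.0861 to 0.222). The difference between effects was 0.87 (SE 0.11, adjusted p = 4.7e-05). The levels in the knockout and with WM-3835 overlap, and those in the control and with DMSO do not.

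Of 23 other fits of the knockout comparison, the call was lost in 4 for Ccl19, 7 for Madcam1, 5 for Vcam1 and 7 for Otud7b, in each case including those with Xist as an added term (adjusted p = 0.0791, 0.349, 0.389 and 0.315).

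**Figure D4:**
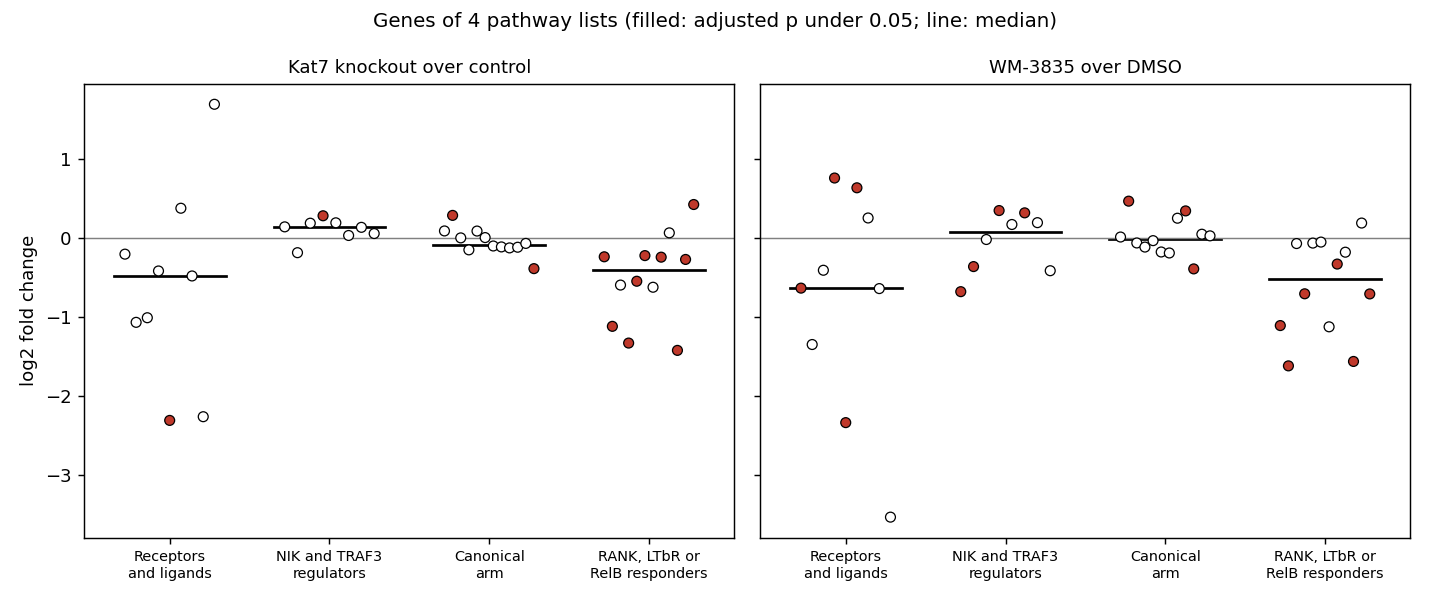
Log2 fold change of each tested gene of 4 pathway lists for Kat7 knockout over control and WM-3835 over DMSO (filled points passed at an adjusted p under 0.05, lines are list medians). The list of genes brought on through RANK, LTβR or RelB has medians of -0.41 and -0.52 (the first -0.19 after adjusting for Xist), and the canonical arm medians of -0.09 and -0.01.

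Genes with a pattern most like that of the receptor and of the decoy were sought among 12975 genes over the 12 libraries, as the smallest root mean square difference of centred log2 CPM. For Tnfrsf11a, Pigk (0.0969) and Top1mt (0.0986) were among the closest. Pigk averaged 45.1 ± 5.64 CPM in the knockout, 41.9 ± 1.90 CPM in the control, 52.9 ± 5.17 CPM with WM-3835 and 64.4 ± 1.41 CPM with DMSO (SD, n = 3 each). For Tnfrsf11b they were Fam189b (0.121), Rogdi (0.152) and Htr7 (0.154). Fam189b averaged 6.61 ± 1.01 CPM in the knockout, 12.5 ± 0.385 CPM in the control, 7.14 ± 0.288 CPM with WM-3835 and 9.23 ± 1.04 CPM with DMSO.

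Reads of overlapping genes could be shared with some of the 10. The library kit does not mark strand, and Nfkb2 shares 316 bases with Psd, which had 2261 to 8512 counts per library, and 2045 with the non-coding gene 4833438C02Rik, which had 369 to 1038. Non-coding genes overlap Traf3 over 18171 bases and Map3k14 over 18998 bases, and a pseudogene lies within Traf2. Whether any reads were shared was not tested.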

How the data were processed

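Raw counts per gene were deposited, and per the file headers they come with an Entrez ID, a symbol and a length. Per the submitters' processing notes, featureCounts and mm10 were used by the authors. Aligner, annotation and strand setting were not given in the sources used here. The 1312 of 27179 genes without a symbol, with 0.657% to 0.743% of each library's counts, were left out.

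Libraries were scaled by TMM in edgeR 4.0.16 (R 4.3.3), filterByExpr left 18670 genes, and 1 quasi-likelihood fit took all 12 libraries as 4 groups. Log2 fold changes carry standard errors (SE), and p-values are two-sided and adjusted by Benjamini-Hochberg over all genes tested. Replicates of a group differed by 8.60 to 51.7 times counting error (squared deviations). The p-values rest on the spread between libraries, pooled over the 4 groups. A coefficient of variation between replicates was also fitted in each group alone. It was 0.469 in the control, 0.294 in the knockout, 0.125 with WM-3835 and 0.103 with DMSO. Knockout p-values thus draw in part on the tighter WM-3835 and DMSO libraries, and inhibitor p-values on the wider control and knockout ones. CPM is TMM-scaled and used within a gene; RPKM adds the deposited length and is used between genes. Alternatives were upper-quartile and RLE scaling, limma-voom (limma 3.58.1) with and without quality weights, DESeq2 1.42.0, other filters, a replicate block, Xist as a covariate, subsets of the libraries and leaving out each library. They were also applied to the lists, a choice made after seeing the data.

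The 10 genes, the lists and the tests were chosen with earlier results of these data known. In each list the 4 genes with the smallest adjusted p in each main comparison are named, as are the 3 genes most like Tnfrsf11a and Tnfrsf11b, except 1 that is not reported here. Marker genes are given mainly as counts or sums. Cd40lg, Cd3e, Cd8a, Klrd1 and Tie1 had too few counts to be tested.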

Additional observations from a re-analysis of the deposited data

Results flagged for a closer look

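For these genes the effect of the Kat7 knockout and that of WM-3835 differed when the difference itself was tested, with p-values adjusted over all genes in edgeR's quasi-likelihood test (10.1% of all genes passed). The knockout effect minus the inhibitor effect, on the log2 scale, was -0.64 for Tnfrsf11b (SE 0.16, adjusted p = 0.0149) and 0.58 for Traf6 (SE 0.13, adjusted p = 0.00676). The Tnfrsf11b difference did not pass without knockout 1 (-0.52, adjusted p = 0.0548) or WM-3835 2 (-0.49, 0.0523), after adjusting for Xist (-0.40, 0.326) or with knockout 3 standing for its group (-0.46, 0.216). The Traf6 difference did not pass in these last fits either (0.57 in both, adjusted p = 0.084 and 0.0641).

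Among the neighbours of the pathway it was 0.87 for Aire (SE 0.11, adjusted p = 4.7e-05), 1.13 for Vcam1 (SE 0.16, adjusted p = 0.000118) and 0.82 for Birc2 (SE 0.11, adjusted p = 0.000126), which passed in all 22 other fits. It was -1.17 for Tnfrsf12a (SE 0.24, adjusted p = 0.00366), -0.47 for Rela (SE 0.11, adjusted p = 0.0102) and 0.43 for Cd40 (SE 0.12, adjusted p = 0.0306). Those of Tnfrsf12a and Rela were lost after adjusting for Xist (adjusted p = 0.0538 and 0.131) and with knockout 3 standing for its group (adjusted p = 0.0677 and 0.107). That of Cd40 was lost in 5 of 22 fits, including those without control 1 (0.40, adjusted p = 0.0501), DMSO 2 (0.38, 0.0856) and WM-3835 1 (0.37, 0.09). The control and DMSO cultures from which the effects are measured differ in genotype label and treatment together, and their part in these differences cannot be told apart.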

How the results depend on the processing

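Each value of the 10 genes was recomputed under each alternative run for its comparison, 865 values in all. Adjusting for Xist and knockout 3 as the only knockout library were run only for the knockout comparison and the difference between effects. Of these, 787 kept their direction and their side of the threshold, 30 no longer passed, 27 passed in addition and 21 changed sign, and none of the 21 passed the test. In the knockout, 2646 genes and 3 of the 10 passed. Counts fell to 1180 genes with quality weights per group, 1157 on the 6 libraries alone, 704 with knockout 3 as the only knockout library and 480 with Xist as a covariate (437 shared with the 2646), with 1 of the 10 in each, and to 1 to 4 of the 10 when 1 library was left out. With WM-3835, 3490 genes and 2 of the 10 passed. The counts were 6589 genes and 5 of the 10 with quality weights per group, and 6070 and 4 on the 6 libraries alone. RLE scaling, upper-quartile scaling, DESeq2, no filter on low counts and a filter of CPM over 1 in at least 3 libraries each gave 4 of the 10. Over all 9 settings other than leaving out a library, 3421 to 6589 genes passed. When 1 library was left out, 2393 to 4241 genes and 0 to 4 of the 10 passed. For the difference between effects, 1887 genes and 2 of the 10 passed, against 695 and 0 after adjusting for Xist and 784 and 0 with knockout 3 standing for its group, and 1 to 3 when 1 library was left out. The cause of these moves was not tested.

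The knockout difference of Relb, near 0, changed sign in limma-voom (0.00104), with quality weights (0.000837), with no filter (0.00298) and when 1 library was left out (-0.0602 to 0.0694). That of Nfkb2 became 0.15 after adjusting for Xist and 0.11 with knockout 3 standing for its group (-0.107 to 0.0717 when 1 library was left out), and that of Traf2 -0.0791 and -0.0574. The difference between effects on Traf2 was -0.0114 after adjusting for Xist. Libraries with the same replicate number deviated together weakly at most (correlations of -0.0187 to 0.058). Of 6 libraries, 5, 4 and 4 were closest to their own number in the knockout, inhibitor and DMSO comparisons. These values, from 3 libraries per group, cannot decide whether the numbers pair the libraries. With the replicate number as a block, 2542 genes passed in the knockout and 3505 with WM-3835, and 3 of the 10 in each, Traf6 being the addition with WM-3835 (-0.26, adjusted p = 0.048). Tnfsf11 does not reach CPM over 1 in 3 libraries and has no value under that filter, nor for the knockout in the fit of 6 libraries. Of the 10 genes, only Tnfsf11 was near the limit of detection.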
